A study of Mus musculus with 36 samples.

Results

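The data described here are the transcriptomes of Lgr5 GL cells (genetically labelled progeny of Lgr5+ hair follicle stem cells) just before and 1 week after a second injury of healed tail skin. They are the 3 libraries at 8w pw1, taken 8 weeks after the first wound and just before the second, and the 3 libraries at 1w pw2, taken 1 week after the second wound, so 6 of the 36 samples of the series, compared over every gene of the count table. All mice carried Lgr5-EGFP-ires-CreERT2 and Rosa26-fl/STOP/fl-tdTomato, were labelled at 6 to 8 weeks of age with a single topical dose of 4-hydroxytamoxifen, and received a full-thickness 2 mm punch wound in the tail 1 week later. The 8w pw1 mice had 1 healed wound, and the 1w pw2 mice had that wound and a second one laid over it at 8 weeks. Cre was driven by the Lgr5 locus, so tdTomato marked cells that expressed Lgr5 at the time of labelling and all their descendants, whatever they had become by the time of sorting. The tdTomato+ cells were sorted from skin that took in the wound bed together with follicles at a distance, and each of the 3 mice of a time point gave 1 mini-bulk library. The libraries at 8w pw1 are called a, b and c, because their column numbers do not match the replicate numbers of the labels, and those at 1w pw2 are called 1, 2 and 3.

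Lgr5 marks the lower bulge and hair germ of the resting follicle, stem cells that build the new hair at each growth phase and that can leave the follicle to help cover a wound. In a healed epithelium at rest few such cells divide. A wound typically brings keratinocytes into the cell cycle, where genes of DNA replication act in S phase and genes of the spindle, kinetochore and cytokinesis peak in G2 and M phase, and it changes their keratins, their adhesion to neighbours and their contact with the basement membrane. Many genes of G2 and M phase share promoter elements, among them CCAAT boxes, bound by the factor NF-Y, and the cell cycle homology region with the core TTTGAA, through which the DREAM and MuvB complexes keep these genes off in resting cells and on in dividing ones.

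The promoters of 4 genes of chromosome segregation are shown because this group gave the widest contrast between the time points. They are RefSeq windows on GRCm38.p6, from 250 bases before to 50 bases after the transcription start, read 5′ to 3′ on the strand of the gene. Capitals mark CCAAT or its reverse ATTGG, and TTTGAA or its reverse TTCAAA. Kif23 encodes the motor subunit of centralspindlin, Racgap1 its partner, Cenpf a kinetochore protein and Mki67 the Ki-67 antigen of cycling cells.
Kif23, chr9:61946750-61947049, minus strand: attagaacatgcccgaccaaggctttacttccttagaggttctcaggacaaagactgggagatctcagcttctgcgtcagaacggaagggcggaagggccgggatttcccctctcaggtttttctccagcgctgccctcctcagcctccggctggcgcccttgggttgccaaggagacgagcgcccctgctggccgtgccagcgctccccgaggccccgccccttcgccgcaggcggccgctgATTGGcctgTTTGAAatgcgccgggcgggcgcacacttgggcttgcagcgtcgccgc
Racgap1, chr15:99651607-99651906, minus strand: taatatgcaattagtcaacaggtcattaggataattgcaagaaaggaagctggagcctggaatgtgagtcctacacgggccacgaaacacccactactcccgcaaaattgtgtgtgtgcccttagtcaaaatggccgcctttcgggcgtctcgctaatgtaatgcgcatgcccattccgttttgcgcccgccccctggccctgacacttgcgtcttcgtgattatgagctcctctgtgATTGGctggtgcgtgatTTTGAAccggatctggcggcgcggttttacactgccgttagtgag
Cenpf, chr1:189688037-189688336, minus strand: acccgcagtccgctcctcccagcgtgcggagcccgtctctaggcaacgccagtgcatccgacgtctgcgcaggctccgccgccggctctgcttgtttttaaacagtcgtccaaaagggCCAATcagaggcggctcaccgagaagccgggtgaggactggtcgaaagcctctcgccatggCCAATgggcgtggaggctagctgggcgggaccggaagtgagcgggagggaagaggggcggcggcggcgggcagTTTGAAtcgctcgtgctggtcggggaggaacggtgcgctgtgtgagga
Mki67, chr7:135716330-135716629, minus strand: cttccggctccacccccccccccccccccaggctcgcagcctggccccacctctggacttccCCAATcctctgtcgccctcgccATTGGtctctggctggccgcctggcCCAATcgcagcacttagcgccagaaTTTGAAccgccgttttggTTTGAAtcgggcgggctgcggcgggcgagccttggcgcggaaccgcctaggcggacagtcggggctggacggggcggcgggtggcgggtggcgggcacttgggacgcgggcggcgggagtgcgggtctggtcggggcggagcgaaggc

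Every one of these 4 windows held at least 1 CCAAT and at least 1 TTTGAA. Of the 24 mitosis genes of the fixed list, 20 matched a RefSeq window, with 21 windows between them, and Aurkb, Tpx2, Ccna2 and Kif20a had none. CCAAT stood in 19 of the 21 windows on either strand, which is 90.5%, against 37.4% of all 32851 windows. TTTGAA stood in 16 of the 21, or 76.2%, against 17.9% of all windows, and both together in 76.2% against 6.95%. In the 23 windows of the S phase list, CCAAT was in 69.6% and TTTGAA in 13.0%. The AP-1 site TGANTCA, a palindrome, was in 0 of the 21 mitosis windows, in 0 of the 12 windows of the leading higher genes and in 0 of the 8 windows of the leading lower genes described below, against 7.81% of all windows. In those 12 windows of the leading higher genes, Racgap1 among them, CCAAT was in 50%, TTTGAA in 58.3% and both in 25%. In the 8 windows of the leading lower genes the shares were 25%, 25% and 12.5%. CCAAT and TTTGAA can share at most 1 base, and both were searched for after the expression values were seen. These are matches of letters in short windows and say nothing about whether a factor was bound in these cells.

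The 6 libraries held between 2250348 and 6960537 counts. Gm12415, a single predicted gene, took 15.2 to 30.1% of the counts at 8w pw1 and 16.5 to 27.6% at 1w pw2, and mitochondrial genes took 2.62 to 3.29% and 2.30 to 3.09%. Levels are given as CPM, counts scaled to library size with TMM factors, and compare a gene with itself across libraries, not genes with each other. Across 18025 tested genes the log2 levels of pairs of libraries correlated at 0.835 to 0.904 within 8w pw1, at 0.872 to 0.889 within 1w pw2 and at 0.823 to 0.893 between the time points, so the libraries of a time point were hardly closer to each other than to those of the other. All 9 hair follicle keratinocyte markers were present, with a summed level of 30330 to 32510 CPM at 8w pw1 and 21810 to 28220 CPM at 1w pw2. Krt15 made up the largest part of the sum and was lower at 1w pw2 without overlap, while the other markers each overlapped. Lgr5 itself stood at 129, 396 and 178 CPM at 8w pw1 and at 311, 424.5 and 209 CPM at 1w pw2, with overlapping groups. Fibroblast markers, all 8 of which were found, summed to 119.5 to 264.8 CPM and 230.7 to 290.5 CPM, and melanocyte markers to 30.4 to 77.2 CPM and 21.9 to 36.5 CPM with Mlana, Tyr and Tyrp1 at 0 or not listed. Endothelial markers, all 7 of them found, reached at most 15.8 CPM in sum, and Merkel and neural markers, 4 of 6 found, at most 9.95 CPM. Of the macrophage and Langerhans markers Cd207, H2-Aa, Lyz2, Itgam, C1qa and Mrc1, and of the T cell markers Cd3e, Cd3g, Cd3d, Trac, Trdc and Cd2, were at 0 or not listed. The other T cell markers, Trbc2 and Thy1, were found and summed to 27.53 to 45.75 CPM at 8w pw1 and 29.63 to 40.46 CPM at 1w pw2. The 4 macrophage and Langerhans markers found summed to 2.64 to 5.34 CPM and 1.125 to 4.395 CPM. Pericyte and smooth muscle markers summed to 63.8 to 180.4 CPM and 64.1 to 163.0 CPM, mostly from Acta2, with Rgs5, Des and Tagln at 0 or not listed.

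The comparison set Lgr5 GL cells 1 week after a second wound against those of the healed epithelium before it. The libraries were taken at week 9 and week 8, and no group at week 9 had only the first wound. Effects of the second wound and of that week therefore cannot be told apart. No gene passed an adjusted p of 0.05 in edgeR's quasi-likelihood test (0 of 18025, 0%), and the smallest adjusted p was 0.204, for Golga7b. At an unadjusted p under 0.05 there were 374 genes higher at 1w pw2 (2.07% of the genes tested) and 317 lower (1.76%). With the same threshold for the adjusted p, edgeR's likelihood ratio test called 5 genes, DESeq2 16 and limma-voom 0. In 1117 genes (6.20%) all 3 libraries at 1w pw2 lay above all 3 at 8w pw1, and in 1139 genes (6.32%) all 3 lay below. What follows are therefore levels and unadjusted p-values of single genes, and counts over fixed lists set beside these shares, in the absence of any called gene. The lists are described by the members that passed the filter on low counts, and a gene counted in 1 time point alone could pass it through that time point. Lists with 3 or more untested members were the hair matrix list with 21 of 28 tested, alarmins and cytokines with 17 of 23, interferon and antigen presentation with 17 of 24, the cornified envelope with 14 of 17 and the Notch pathway with 13 of 16. When each of the 6 libraries was left out in turn, the median log2 change kept its sign in 13 of the 29 lists and turned in at least 1 case in the other 16. With 3 mice at each time point an exact permutation test of a single value cannot go below a two-sided p of 0.1.

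Of the 29 fixed lists the mitosis list had the highest median. Its 24 members all had a higher fitted level at 1w pw2, 17 of them at an unadjusted p under 0.05 and none lower, and in 18 the 2 groups of libraries did not overlap. Over all genes tested 2.07% were higher and 1.76% lower at that p, and 6.20% were higher without overlap. The median log2 change of the list was 2.12, beside -0.02 over all genes tested. Leaving out any 1 of the 6 libraries kept all 24 positive, with a median between 1.72 (without 1w pw2 library 1) and 2.43 (without 1w pw2 library 2) and with 12 to 21 members at an unadjusted p under 0.05. The summed level of the list was 320, 122 and 157 CPM in the 8w pw1 libraries and 936, 437 and 833 CPM in the 1w pw2 libraries, so library 2 at 1w pw2 was the lowest of its group and library a at 8w pw1 the highest of its own.

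Aurkb, the kinase subunit of the chromosomal passenger complex, was at 2.65, 1.71 and 3.02 CPM at 8w pw1 and at 21.1, 17.5 and 43.3 CPM at 1w pw2. Every library after the second wound was at least several times above every library before it, and the log2 difference was 3.44 ± 0.74 (SE, unadjusted p = 0.000209, adjusted p = 0.943). Kif23 was at 6.18, 2.19 and 1.36 CPM and then at 45.4, 16.8 and 28.6 CPM, a log2 difference of 3.31 ± 0.90 (SE, unadjusted p = 0.00172). Its partner Racgap1 ranked the libraries of each time point in the same order, at 7.07, 6.82 and 4.23 CPM before and 46.0, 17.7 and 44.4 CPM after, with a log2 difference of 2.59 ± 0.61 (SE, unadjusted p = 0.000516). Racgap1 was no member of the fixed list and came in through the rule for leading genes.

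Mki67 was at 11.9, 5.61 and 13.0 CPM at 8w pw1 and at 59.4, 61.5 and 118 CPM at 1w pw2, a log2 difference of 2.96 ± 0.82 (SE, unadjusted p = 0.00208). The groups were far apart here too, and 1w pw2 library 3 was the highest. Cenpf was at 6.62, 18.04 and 13.0 CPM and then at 70.0, 27.7 and 43.7 CPM, a log2 difference of 1.89 ± 0.49 (SE, unadjusted p = 0.00114). Cyclin B genes, which drive entry into mitosis, took the same direction, with Ccnb1 at a mean of 8.26 CPM before and 42.5 CPM after and Ccnb2 at 12.3 and 58.1 CPM. Among the members that did not reach an unadjusted p of 0.05 were Cdk1, the kinase that the B cyclins activate, at means of 19.45 and 33.8 CPM with a log2 difference of 0.84 ± 0.83 (SE), Aurka at 0.90 ± 0.85 and Bub1b at 0.86 ± 0.84. In Cdk1, Aurka, Bub1b, Nusap1, Birc5 and Ube2c the libraries of the 2 time points overlapped. Kif20a shares 29.3% of its exon bases with Cdc23 on the other strand, so that unstranded counting cannot fully separate this pair.

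**Figure D1:**
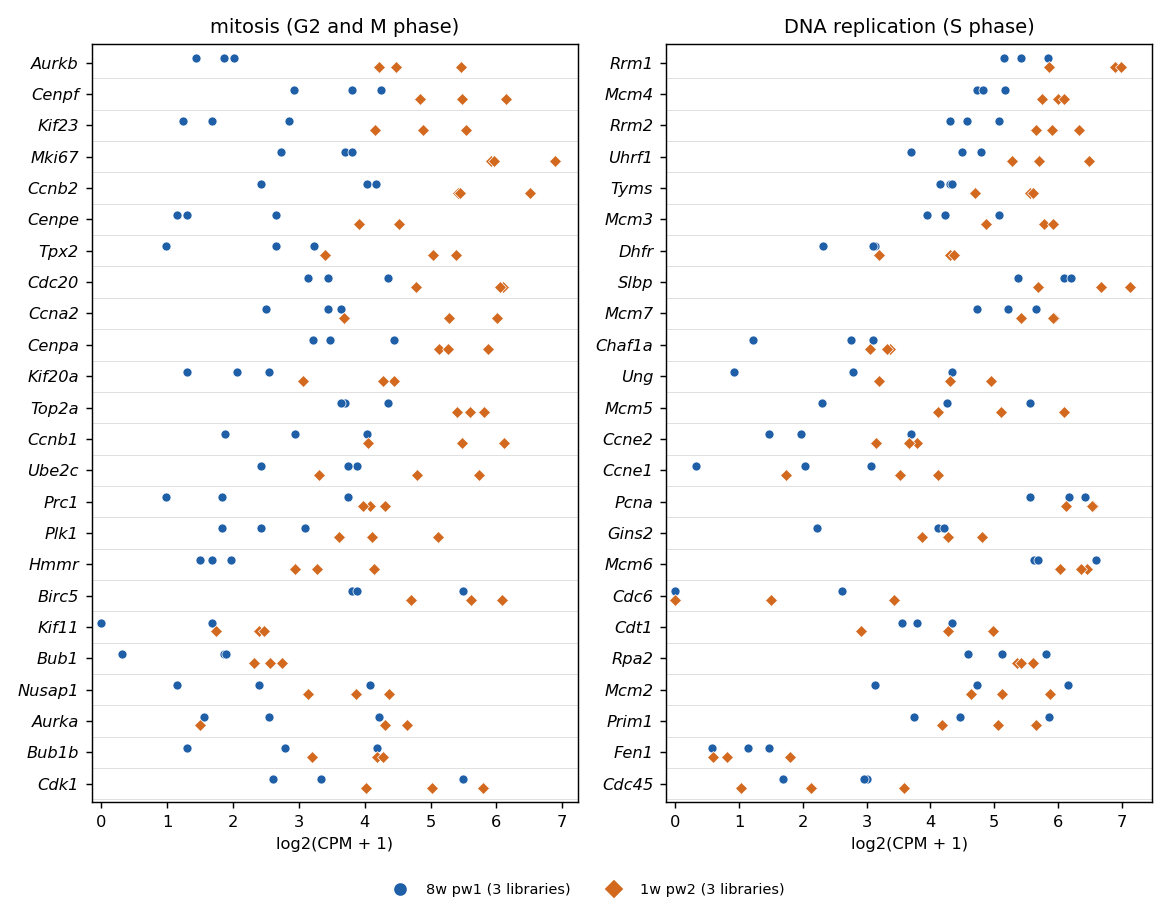
Level of each member of the mitosis list (left) and the DNA replication list (right) as log2(CPM + 1) on the horizontal axis, 1 row per gene in order of unadjusted p, with circles for the 3 libraries at 8w pw1 and diamonds for the 3 at 1w pw2. In 18 of the 24 mitosis genes the diamonds lie wholly to the right of the circles, against 6 of the 24 replication genes and 6.20% of all genes tested.

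The S phase list took the same direction with a smaller size. Of its 24 members 23 had a higher fitted level at 1w pw2, 5 at an unadjusted p under 0.05 and none lower, and in 6 the libraries did not overlap. The shares of all genes tested were 2.07% higher at that p and 6.20% higher without overlap. The median log2 change was 0.79. Rrm1 and Rrm2, the subunits of ribonucleotide reductase, which makes the building blocks of DNA, were at log2 differences of 1.18 ± 0.42 (SE, unadjusted p = 0.0120) and 1.35 ± 0.51 (unadjusted p = 0.0165). Rrm2 was at 32.7, 22.9 and 18.9 CPM before and at 49.7, 59.3 and 79.4 CPM after the second wound. Mcm4, a subunit of the replicative helicase, was at 25.6, 35.1 and 27.3 CPM and then at 63.1, 67.8 and 53.1 CPM, with no overlap. The other helicase subunits had overlapping libraries and ranged from Mcm3 at 1.11 ± 0.58 to Mcm2 at 0.16 ± 0.67, and Pcna, the sliding clamp, was at 0.33 ± 0.35 with overlapping libraries. Uhrf1, which maintains DNA methylation behind the fork, had the largest difference of the 5, at 1.54 ± 0.60 (SE, unadjusted p = 0.0197). Fen1, Gins2 and Chaf1a share 78.8%, 67.3% and 52.5% of their exon bases with Gm10143, Gse1 and Ubxn6 on the other strand. Unstranded counting cannot fully separate these pairs, and Fen1 was at most 2.46 CPM in the 6 libraries.

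Set against the whole time course, the state before the second wound was the low point for these genes. The mean level of all 24 mitosis genes was lowest at 8w pw1 of the 6 time points, as it was for 15 of the 24 replication genes (62.5%) and for 11.8% of all genes tested. All 24 mitosis genes were also lower at 8w pw1 than in unwounded skin at 0w, where their summed level was 294 to 758 CPM. At 1w pw2 the sum reached 437 to 936 CPM, overlapping the range at 0w and below the 1314 to 2029 CPM seen 1 week after the first wound, at 1w pw1. In 22 of the 24 genes the mean at 1w pw2 was below that at 1w pw1. The re-wounding difference and these orders all use the same 8w pw1 libraries. In bulk samples, fewer dividing cells and less mitotic RNA in each cannot be told apart.

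**Figure D2:**
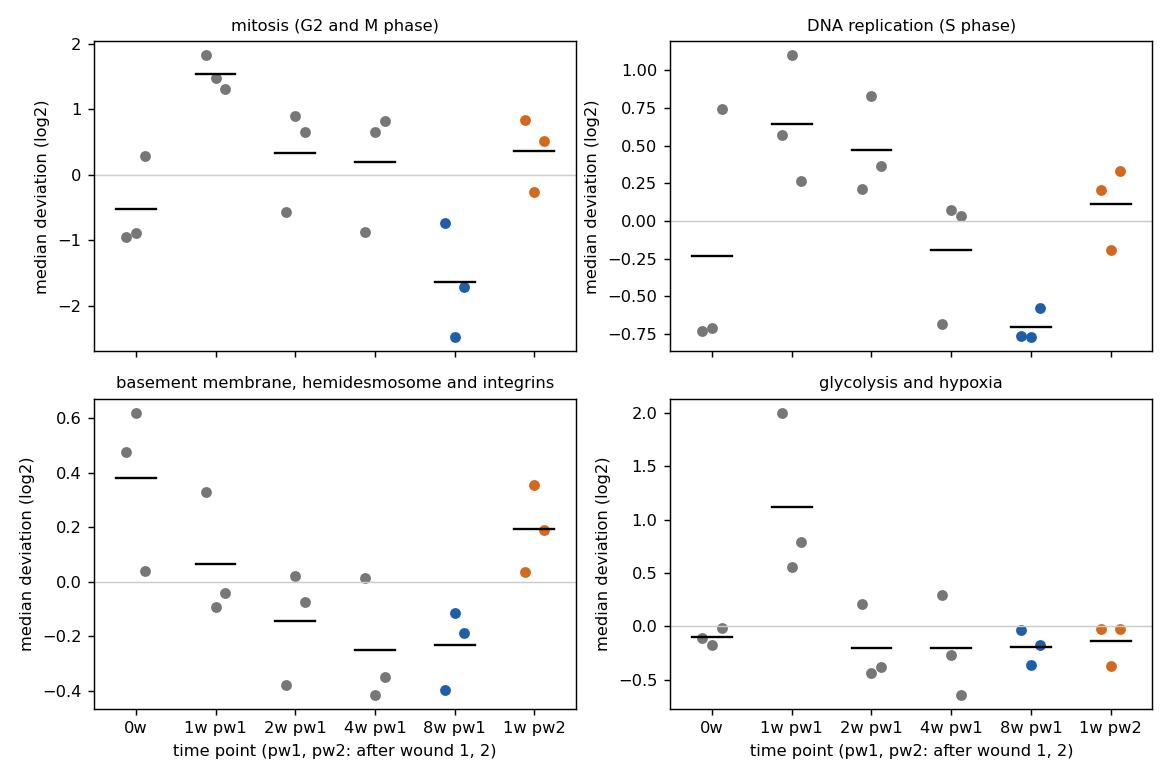
Median deviation of each library from the mean of the 18 Lgr5 GL libraries, in log2 units, over the members of 4 lists at the 6 time points, with 1 point per library and a black bar for the mean of 3. The mitosis points at 8w pw1 (blue) lie below those at 1w pw2 (orange), and both the mitosis and the glycolysis points are highest at 1w pw1.

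Cdkn1a, the p21 inhibitor of cyclin-dependent kinases, took the opposite direction to the cell cycle genes. It was at 272.5, 244 and 280 CPM at 8w pw1 and at 134, 97.3 and 128 CPM at 1w pw2, with a log2 difference of -1.15 ± 0.28 (SE, unadjusted p = 0.000792, adjusted p = 1). The libraries did not overlap and the spread within each time point was narrow. Dtl, the substrate receptor of a ubiquitin ligase that degrades p21 in S phase, was at 1.77, 7.55 and 9.05 CPM before and at 34.0, 31.8 and 26.4 CPM after, a log2 difference of 2.27 ± 0.58 (unadjusted p = 0.00105). Of the 10 cell cycle inhibitors tested Cdkn1a was the 1 at an unadjusted p under 0.05, and Cdkn1b, which encodes p27, was at -0.67 ± 0.33 with overlapping libraries. Over all genes tested 1.76% were lower at that threshold.

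By the rule for leading genes, which took genes whose libraries did not overlap and had the smallest unadjusted p, 12 genes were named in each direction, and that rule fixes the lack of overlap. Of the 12 higher genes Aurkb was the 1 member of the fixed mitosis list. Others among them were Haspin, the histone kinase that places the passenger complex at centromeres, with 0, 0 and 0.302 CPM before and 7.39, 2.50 and 6.40 CPM after, Cdca5, or sororin, which protects sister cohesion, Kif4, a chromokinesin, and Aspm, a spindle pole protein. Kif4 was at 0.442, 0 and 0.302 CPM and then at 11.8, 3.17 and 6.40 CPM, and Aspm at 0.442, 0.487 and 0.905 CPM and then at 4.41, 8.16 and 21.8 CPM. Cdca5 was at 0.442, 0 and 0.453 CPM and then at 7.91, 1.17 and 6.78 CPM. At 8w pw1 these levels were near the floor of 3 counts, which was 0.451 to 1.32 CPM in the 3 libraries, so that the size of the folds is poorly fixed. Kif4 shares 15.1% of its exon bases with Pdzd11 on the other strand.

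Golga7b, which encodes a partner of palmitoyltransferase enzymes, had the smallest p of all genes. It had 0 counts in all 3 libraries at 8w pw1 and 38.0, 34.5 and 47.4 CPM at 1w pw2, which is at least 47.8-fold higher when 3 counts per library are set for the zeros. Its level at other times was 2.27 to 8.09 CPM at 0w, 0 to 15.4 CPM at 1w pw1, 30.6 to 71.2 CPM at 2w pw1 and 19.5 to 104.9 CPM at 4w pw1, and of these 12 libraries 1, at 1w pw1, had no count. AI506816, a gene of unstated function, was at 1.32, 6.09 and 3.77 CPM and then at 28.9, 17.8 and 30.1 CPM, a log2 difference of 2.72 ± 0.57 (SE, unadjusted p = 0.000145). In the first wounding the same gene differed by 2.68 (adjusted p = 0.0296), from a mean of 10.2 CPM at 0w to 65.1 CPM at 1w pw1.

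The other higher genes were of the matrix and the cytoskeleton. Bgn, the proteoglycan biglycan, was at 26.5, 29 and 28.8 CPM at 8w pw1 and at 80.0, 57.6 and 124 CPM at 1w pw2, a log2 difference of 1.63 ± 0.34 (SE, unadjusted p = 0.000175). Map1b, a microtubule-binding protein best known from neurons, was at 28.7, 32.7 and 30.5 CPM and then at 81.2, 107 and 94.1 CPM, a log2 difference of 1.62 ± 0.37 (unadjusted p = 0.000342). Both had 3 libraries within a narrow band before the second wound and none within it after. Col4a2, a chain of the type IV collagen of basement membranes, was at 35.8, 48.3 and 26.7 CPM and then at 118.5, 98.0 and 99.8 CPM, a log2 difference of 1.52 ± 0.39 (unadjusted p = 0.00104). Its partner chain Col4a1 was at 14.1, 26.8 and 18.3 CPM and then at 73.7, 44.6 and 52.3 CPM, with almost the same log2 difference, 1.52 ± 0.56 (unadjusted p = 0.0150).

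**Figure D3:**
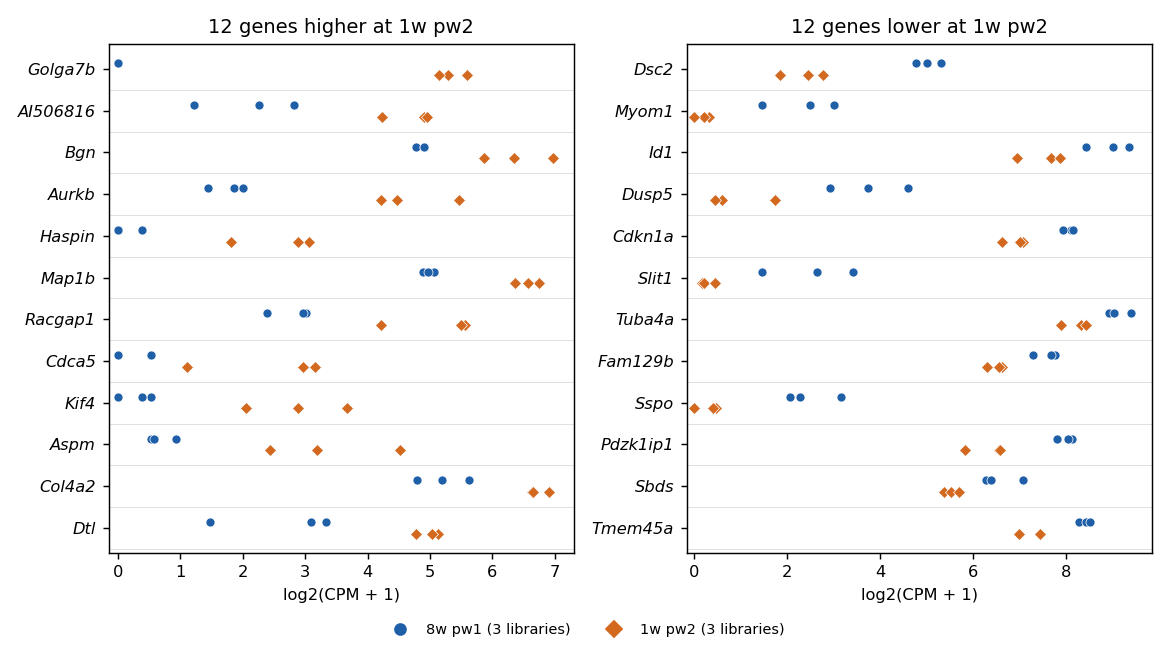
Level as log2(CPM + 1) of the 12 leading higher genes (left) and the 12 leading lower genes (right), with circles for the 3 libraries at 8w pw1 and diamonds for the 3 at 1w pw2. The rule that chose them requires the circles and diamonds to lie apart, and Golga7b, at 0 in all 3 circles, has the widest gap.

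Col4a1 and Col4a2 are read in opposite directions from starts only 21 bases apart on GRCm38.p6, and the window of Col4a1 is shown because the pair moved together. The RefSeq window of Col4a1 is printed on its own strand, with its 1 match of CCAAT, as ATTGG, in capitals, and the window of Col4a2, chr8:11312555-11312854 on the plus strand, overlaps it and holds a different match of CCAAT.
Col4a1, chr8:11312777-11313076, minus strand: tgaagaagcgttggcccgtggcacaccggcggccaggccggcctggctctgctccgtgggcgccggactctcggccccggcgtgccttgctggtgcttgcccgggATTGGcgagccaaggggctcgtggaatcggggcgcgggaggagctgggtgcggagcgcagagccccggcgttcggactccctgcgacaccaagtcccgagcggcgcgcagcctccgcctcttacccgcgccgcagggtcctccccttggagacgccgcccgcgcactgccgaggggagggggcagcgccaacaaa

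The list of basement membrane, hemidesmosome and integrin genes had 18 of 25 members higher, with a median log2 change of 0.39. At an unadjusted p under 0.05 there were 6 higher and none lower, beside 2.07% and 1.76% of all genes tested. The libraries did not overlap in 10 higher members and 1 lower, beside 6.20% and 6.32% of all genes tested. Without single libraries the median stayed between 0.23 and 0.53. The 6 were matrix proteins, namely Col4a1, Col4a2, Npnt, Tnc, Lama5 and Fn1. Npnt, the integrin ligand nephronectin, was at 31.8, 44.6 and 42.9 CPM and then at 72.8, 100.6 and 96.0 CPM, a log2 difference of 1.17 ± 0.33 (SE, unadjusted p = 0.00206). The laminin chain Lama5 went from a mean of 102 to 178 CPM, and tenascin C (Tnc), a matrix protein of healing tissue, from 53.1 to 106 CPM. Of the integrins, Itgb1, Itga6 and Itga3 were higher without overlap, with log2 differences of 0.56 ± 0.29, 0.49 ± 0.28 and 0.72 ± 0.53, and Itga5 was lower without overlap, at -0.87 ± 0.66. The core of the hemidesmosome differed little, with Col17a1 at means of 1285 and 1279 CPM, Itgb4 at 267 and 296 CPM, and Lamb3 at 236 and 225 CPM. Summed fibroblast markers, at 119.5 to 264.8 CPM before and 230.7 to 290.5 CPM after, overlapped between the time points. Among these markers Col1a1 was at 24.2, 22.8 and 14.7 CPM before and 14.5, 19.1 and 18.8 CPM after, Dcn at 76.5, 41.3 and 16.7 CPM and then at 62.8, 62.9 and 67.5 CPM, and Fbln1 at 100.3, 134 and 64.4 CPM and then at 146, 165 and 88.5 CPM. The part of such RNA in the matrix genes was not tested.

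Cell junction genes were divided. Dsc2, a desmosomal cadherin, led the lower genes, at 26.5, 31.2 and 38.6 CPM before and 2.59, 5.83 and 4.52 CPM after the second wound, a log2 difference of -2.90 ± 0.66 (SE, unadjusted p = 0.000384). Dsg2, its counterpart among the desmogleins, was at 26.9, 31.9 and 18.9 CPM and then at 61.9, 58.0 and 69.3 CPM, a log2 difference of 1.28 ± 0.52 (unadjusted p = 0.0246). In both genes the libraries did not overlap, in opposite directions. Of the 19 cadherins, desmosome genes and connexins, 2 were higher and 5 lower at an unadjusted p under 0.05, with a median of -0.20. Over all genes tested these shares were 2.07% and 1.76%. Gjb2, a connexin, was the other higher one, at 1.70 ± 0.76 with overlapping libraries. The lower ones included plakoglobin (Jup), from a mean of 5502 to 3458 CPM, and Perp, from 6037 to 3986 CPM. The connexin Gja1 was at a log2 difference of 0.30 ± 0.39, with overlapping libraries. Without 8w pw1 library c the median of the list was -0.03, and 1 lower member was left at that threshold.

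The other leading lower genes held targets and regulators of signalling. Id1, a target of BMP signals that blocks differentiation factors, was at 342, 647 and 511 CPM at 8w pw1 and at 201, 232 and 121 CPM at 1w pw2, a log2 difference of -1.43 ± 0.35 (SE, unadjusted p = 0.000646). Dusp5, a nuclear phosphatase of ERK, was at 23.4, 6.58 and 12.4 CPM and then at 0.519, 2.33 and 0.377 CPM, a log2 difference of -3.62 ± 0.88 (unadjusted p = 0.000647). In both genes every library before the second wound was above every library after it. Slit1, a secreted guidance protein, was at 1.77, 9.75 and 5.28 CPM and then at 0.130, 0.167 and 0.377 CPM, which is under the floor of 3 counts in each library after the second wound. Myom1 and Sspo, genes of the muscle sarcomere and of a brain-secreted glycoprotein, were low in all 6 libraries, at most 7.09 and 7.95 CPM.

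The remaining 5 lower genes were Tuba4a, Pdzk1ip1, Tmem45a, Fam129b and Sbds. Tuba4a, an alpha tubulin, was at 484, 664 and 517 CPM and then at 317, 234 and 343 CPM, a log2 difference of -0.90 ± 0.25 (SE, unadjusted p = 0.00225), but 37.3% of its exon bases are shared with Stk16 on the other strand. Pdzk1ip1, a small membrane protein, was at 276, 260.0 and 221 CPM and then at 93.2, 55.5 and 94.9 CPM, a log2 difference of -1.64 ± 0.48. Tmem45a, a membrane protein of the epidermis, was at 306, 339.5 and 360.5 CPM and then at 125, 171 and 172 CPM, a log2 difference of -1.10 ± 0.33. In all 3 genes each library before the second wound was above each library after it. Fam129b, at -1.10 ± 0.32, and Sbds, a factor of ribosome assembly, at -1.09 ± 0.33, were similar in size. Of the 12 lower genes 9 had their highest mean of the 6 time points at 8w pw1, against 13.5% of all genes tested, and all 12 higher genes had their lowest mean there, against 11.8%, orders that the rule for choosing them favours.

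In the TGF-beta and BMP list of 24 genes 1 was higher and 3 were lower at an unadjusted p under 0.05, and 6 were lower without overlap. Over all genes tested 2.07% were higher and 1.76% lower at that p, and 6.32% were lower without overlap. Besides Id1 the lower ones were Id2, at -0.94 ± 0.44 (SE) with overlapping libraries, and Bambi, a decoy receptor that dampens these signals, at 48.6, 62.6 and 55.8 CPM before and 21.4, 9.66 and 13.9 CPM after, a log2 difference of -1.89 ± 0.66 (unadjusted p = 0.0100). The ligands Bmp2 and Bmp6 were also lower without overlap, at -0.88 ± 0.57 and -0.99 ± 0.72. Tgfb3, a TGF-beta ligand, took the other direction, at 3.97, 2.68 and 3.02 CPM before and 27.9, 22.2 and 19.2 CPM after, a log2 difference of 2.84 ± 0.96 (unadjusted p = 0.00818). The list as a whole had a median of -0.03, which became 0.31 without 8w pw1 library c. Notch3, a Notch receptor, was at 68.9, 79.7 and 80.9 CPM and then at 38.5, 31.5 and 29.4 CPM, a log2 difference of -1.21 ± 0.38 (unadjusted p = 0.00535), and was the 1 of 13 Notch pathway genes at that threshold. Of 23 Wnt pathway genes none was, with a median of 0.01.

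Keratins and markers of follicle identity differed in a few members. Krt15, a keratin of bulge cells, was at 20130, 17600 and 19850 CPM at 8w pw1 and at 14700, 10100 and 10770 CPM at 1w pw2, a log2 difference of -0.70 ± 0.28 (SE, unadjusted p = 0.0227) without overlap. Krt14, of the basal layer, was at 4301, 3276 and 4062 CPM and then at 4240, 3734 and 3975 CPM, a log2 difference of 0.04 ± 0.28. Cd34, a bulge surface protein, was at 38.4, 115 and 55.5 CPM and then at 41.8, 109 and 61.0 CPM, with the same wide spread at both times. Of the 19 bulge and lower follicle genes 1 was higher and 2 lower at an unadjusted p under 0.05. Over all genes tested these shares were 2.07% and 1.76%. Runx1, a regulator of hair cycle entry, was the higher, at 43.7, 55.3 and 35.5 CPM and then at 73.9, 129 and 94.5 CPM, a log2 difference of 1.15 ± 0.34 (unadjusted p = 0.00322). Fgf18, a growth factor that holds follicles at rest, was lower, at 126, 155 and 152 CPM and then at 40.1, 24.5 and 49.3 CPM, a log2 difference of -1.93 ± 0.69 (unadjusted p = 0.0115). In the 21 hair matrix, shaft and inner root sheath genes tested 2 were higher, Krt87 at up to 7.91 CPM and Krt73 at 34.6 CPM in 1w pw2 library 3 but at most 2.68 CPM in the other 5 libraries, and the median was 0.28.

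The keratins that wounded epidermis makes overlapped between the time points. Krt6a was at 870.5, 1587 and 2110 CPM at 8w pw1 and at 887, 1152 and 1155 CPM at 1w pw2, a log2 difference of -0.52 ± 0.40. Krt6b was at 57.9, 96.5 and 145 CPM and then at 90.4, 162.5 and 179 CPM, 0.52 ± 0.58, and Krt17 at 920.5, 1299 and 1864 CPM and then at 3149, 1849 and 2491 CPM, 0.87 ± 0.40 (unadjusted p = 0.0420). In all 3 the libraries of the 2 times overlapped, and the median of the 4 wound keratins was 0.04, with a range of -0.27 to 0.75 when single libraries were left out. The interfollicular differentiation list had a median of -0.32 with 10 of 14 negative. In it Sbsn, or suprabasin, was at 598.5, 588 and 672.5 CPM and then at 316, 245 and 232 CPM, a log2 difference of -1.23 ± 0.40 (unadjusted p = 0.00689). The cornified envelope list had a median of -0.31, but 1.09 without 8w pw1 library c, 0.29 without library a and 0.12 without 1w pw2 library 2. The upper follicle and sebaceous list had a median of -0.04, between -0.66 without 1w pw2 library 1 and 0.45 without 8w pw1 library a, with Lrig1, a stem cell marker of the upper follicle, higher without overlap at 0.81 ± 0.38 and Fabp5, a lipid carrier, at 1.17 ± 0.73.

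Stress and immediate early genes gave small differences. Jun, the AP-1 subunit, was at 477, 659 and 439 CPM at 8w pw1 and at 932, 1042 and 698 CPM at 1w pw2, a log2 difference of 0.76 ± 0.33 (SE, unadjusted p = 0.0335) without overlap. Its partner Fos was at 130, 377 and 290 CPM and then at 243, 296 and 148 CPM, with no order between the groups. Of 10 AP-1 factors Jun was the 1 at that threshold, and of 20 other immediate early genes 2 were lower, Gadd45b at -0.94 ± 0.38 and Ier3 at -0.76 ± 0.35. Over all genes tested 2.07% were higher and 1.76% lower at that threshold. Heat shock genes had a median of -0.07, stress and wound factors -0.44 (0.01 without 8w pw1 library a), unfolded protein response genes 0.06 and NRF2 target genes near 0, each with 0 members at an unadjusted p under 0.05 by edgeR's quasi-likelihood test. The interferon and antigen presentation list had a median of -0.04 and 1 lower member, Tap1, at -0.79 ± 0.31. The 26 Polycomb and H2A ubiquitin genes had a median of -0.21 and none at that threshold, with Suz12 higher without overlap at 1.31 ± 0.63 and Ezh1 lower without overlap at -0.80 ± 0.41. All but 1 of the 13 mitochondrially encoded genes were lower, with a median of -0.34, which became -0.07 without 8w pw1 library a.

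Some inflammatory and protease genes depended on single libraries. S100a8, an alarmin abundant in neutrophils, was at 2.65, 0 and 100 CPM at 8w pw1 and at 10.4, 0 and 0 CPM at 1w pw2, and S100a9 and Mmp9 were likewise highest in 8w pw1 library c, at 32.9 and 24.6 CPM. Neutrophil markers summed to 2.91 to 133 CPM at 8w pw1 and 1.66 to 11.1 CPM at 1w pw2, with Cxcr2 and Retnlg at 0 or not listed. The alarmin and cytokine list had 12 of 17 negative and a median of -0.39. Serpinb2, a protease inhibitor of keratinocytes, was at 709, 476.5 and 541 CPM and then at 202, 121 and 225 CPM, a log2 difference of -1.66 ± 0.51 (SE, unadjusted p = 0.00479), with all 3 libraries of each time close together. The 17 proteases and inhibitors had a median of -0.30, which became 0.11 without 8w pw1 library b. The 16 EGF receptor genes had a median of -0.27, with Dusp5 and the ligand Epgn lower and the ERK antagonist Spry4 higher, at 0, 0.487 and 0.755 CPM before and 3.11, 12.8 and 4.89 CPM after. Epgn was low throughout, at 0, 1.71 and 4.075 CPM before and 0 CPM in all 3 libraries after, so its groups met at 0. The 25 actin and migration genes had a median of -0.06, and Anxa1, at -0.62 ± 0.29, was the 1 at an unadjusted p under 0.05. Over all genes tested 1.76% were lower at that threshold.

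The first wounding of the same population, 1w pw1 against 0w, shared no library with the second and served as the comparison for it. It called 233 genes (1.29%) at an adjusted p under 0.05, 78 higher and 155 lower. Across the 18025 genes, which are not independent replicates and which share a fit, the changes at the first and the second wound correlated at r = 0.03 (Spearman's rho 0.04), and 50.6% had the same sign. The difference between the changes passed the test in 4 genes (0.0222%), Col14a1, Fras1, Fam69b and Slit1, and at an unadjusted p under 0.05 in 1993, 1306 of them higher (7.25%) and 687 lower (3.81%) at the second wound than at the first. The mitosis list had 24 of 24 positive at both wounds, with medians of 1.65 and 2.12, and no member had an unadjusted p under 0.05 for the difference.

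Glycolysis and hypoxia genes had different medians at the wounds. At the first wound 21 of 24 were positive with a median of 1.37, and 7 passed an adjusted p of 0.05. At the second wound 10 were positive with a median of -0.14 (0.03 without 8w pw1 library c), and 0 had an unadjusted p under 0.05 by edgeR's quasi-likelihood test. Slc2a1, the glucose transporter GLUT1, was at 99.4, 93.3 and 130.5 CPM at 8w pw1 and at 81.8, 106.5 and 127 CPM at 1w pw2, a log2 difference of -0.04 ± 0.48 (SE). At the first wound it went from 46.9 to 163 CPM at 0w to 455 to 1775 CPM at 1w pw1, by 3.07 (adjusted p = 0.0136). The difference between its changes was -3.11 ± 0.70 (unadjusted p = 0.000313, adjusted p = 0.146). Of the 24 genes 10 were lower at the second wound than at the first with an unadjusted p under 0.05, none was higher, beside 3.81% and 7.25% of all genes tested, and none passed after adjustment.

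Other lists are given side by side for the wounds, without a test of the lists. Krt14 was at 1.53 at the first wound (adjusted p = 0.0197) and 0.04 at the second, and the difference of -1.50 ± 0.40 (SE) had an adjusted p of 0.203. Wound keratins had a median of 1.53 at the first wound and 0.04 at the second, and Fabp5 was at 4.26 and 1.17. Bulge genes had 1 of 19 positive at the first wound, with a median of -0.83, and 9 of 19 at the second, with a median of -0.13 (0.08 without 8w pw1 library b). Lgr5 was at -1.75 ± 0.52 (SE) at the first and 0.42 ± 0.50 at the second, and Cd34 at -2.15 and 0.01. The Wnt list had medians of -1.0045 and 0.0146, the hair matrix list -1.59 and 0.28, and the basement membrane list -0.15 and 0.39. Npnt was at -1.05 and then 1.17, a difference of 2.22 ± 0.46 with an adjusted p of 0.121.

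**Figure D4:**
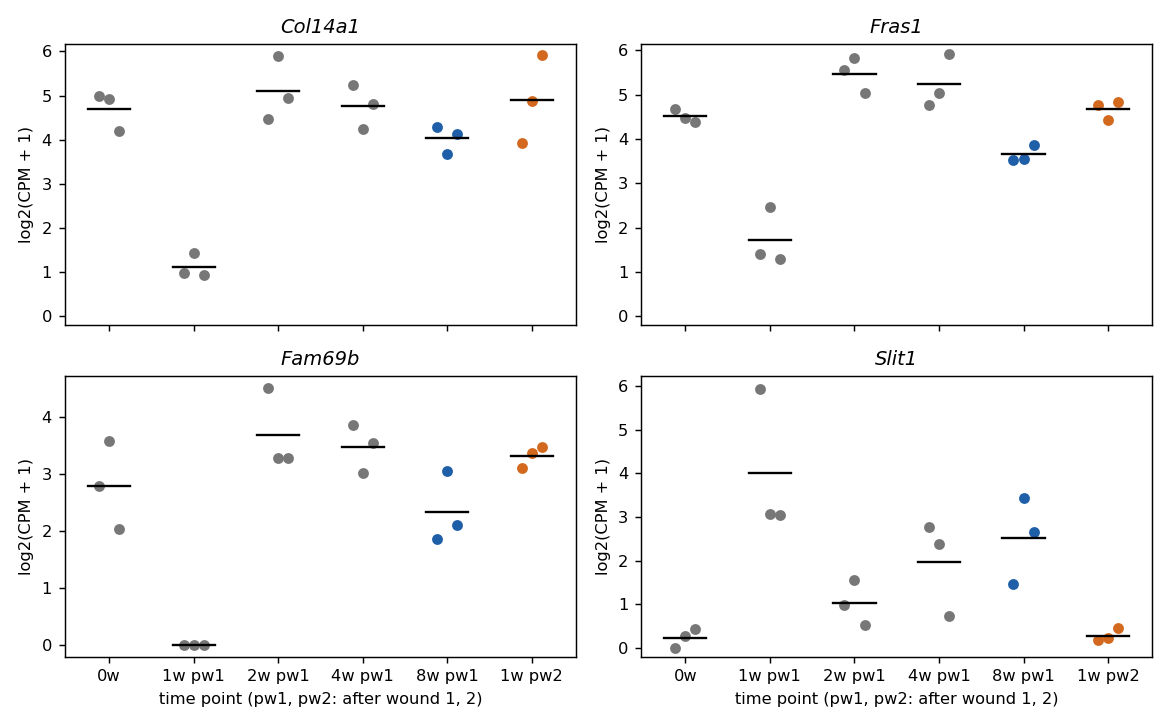
Level as log2(CPM + 1) of the 4 genes whose change differed between the wounds, at the 6 time points, with 1 point per library and a black bar for the mean of 3. Col14a1, Fras1 and Fam69b are lowest at 1w pw1 and not at 1w pw2, and Slit1 is high at 1w pw1 and near 0 at 1w pw2.

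Of the 4 genes that passed, each had an adjusted p under 0.05 for the difference and none for the second wound alone. Col14a1, a fibril-associated collagen, was at 17.2 to 30.9 CPM at 0w and 0.904 to 1.70 CPM at 1w pw1, and at 18.6, 11.7 and 16.6 CPM at 8w pw1 and 14.1, 28.2 and 59.5 CPM at 1w pw2. Fras1, a basement membrane protein, went from 19.99 to 24.7 CPM at 0w to 1.45 to 4.53 CPM at 1w pw1, and was at 10.6, 10.7 and 13.6 CPM and then at 26.2, 20.7 and 27.5 CPM at the second wound. For both the libraries at 1w pw1 lay below all those at 0w, while at the second wound Fras1 was higher without overlap and the libraries of Col14a1 overlapped. Fam69b, of the endoplasmic reticulum, was at 5.90, 11 and 3.10 CPM at 0w and had 0 counts in all 3 libraries at 1w pw1. At the second wound it was at 2.65, 7.31 and 3.32 CPM at 8w pw1 and 7.65, 9.33 and 10.2 CPM at 1w pw2. Slit1 did the reverse, at 0 to 0.345 CPM at 0w and 7.23 to 60.3 CPM at 1w pw1. The differences in log2 change were 5.599 ± 0.85 (SE) for Col14a1, 4.29 ± 0.68 for Fras1, 8.79 for Fam69b and -11.59 for Slit1, with adjusted p-values of 0.0354, 0.0408, 0.0448 and 0.0354, and the fitted sizes for Fam69b and Slit1 depend on the count added to zeros. Fam69b shares 20.8% of its exon bases with Gm20532 on the same strand. These calls were not stable. None of the 4 was called by limma-voom (adjusted p = 0.102 for each), with surrogate variables, with the replicate block (adjusted p from 0.0585 for Col14a1 to 0.0653 for Fras1), or without 0w a, 0w b, 1w pw1 replicate 1, any 1 library at 8w pw1, or 1w pw2 replicate 2 or 3.

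Lrig1 GL cells, the progeny of upper follicle stem cells, went through the same second wound in their own 6 libraries. The test of the difference between the populations called 0 of 13980 genes (0%) in edgeR's quasi-likelihood test, with 634 at an unadjusted p under 0.05 and 3 called by the likelihood ratio test. The smallest adjusted p was 0.0999. Across these genes the changes correlated at r = 0.02 (rho 0.04), and 50.7% had the same sign, in libraries scaled within separate tables. The mitosis list had 20 of 24 positive in Lrig1 GL, with a median of 0.77, against 24 of 24 and 2.12 in Lgr5 GL. Aurkb was at 0.10 in Lrig1 GL and 3.44 in Lgr5 GL, a difference of 3.37 ± 0.96 (SE, unadjusted p = 0.00144, adjusted p = 0.822). Krt6b was at 5.19 in Lrig1 GL, the 1 gene called there of 14306 (adjusted p = 0.0216), and at 0.52 in Lgr5 GL, a difference of -4.64 ± 0.93 (unadjusted p = 2.55e-05, adjusted p = 0.144), and Krt6a was at 2.15 and -0.52. Dsc2 was at 2.67 in Lrig1 GL and -2.90 in Lgr5 GL, a difference of -5.55 ± 1.37 (unadjusted p = 0.000338, adjusted p = 0.779). Basement membrane genes had a median of -0.06 in Lrig1 GL, with Col4a1 at -1.89 against 1.52.

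**Figure D5:**
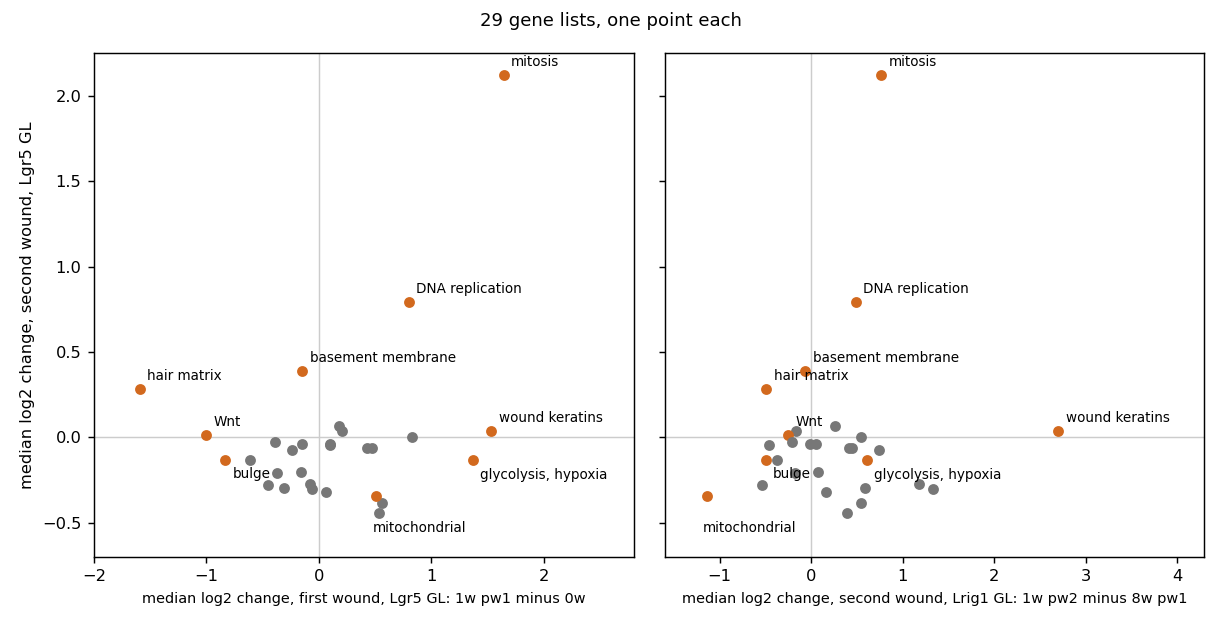
Median log2 change at the second wound in Lgr5 GL cells (vertical axis, 1w pw2 minus 8w pw1) of the 29 gene lists, 1 point each, against the median at the first wound in Lgr5 GL cells (left) and at the second wound in Lrig1 GL cells (right). The mitosis and DNA replication lists are positive on every axis, at 2.12 and 0.79 on the vertical one, while wound keratins lie far to the right at 1.53 and 2.70 and near 0 on the vertical axis.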

How the data were processed

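Smart-seq2 libraries of sorted tdTomato+ cells had been processed by the authors with Trim Galore 0.5.0, HISAT2 2.2.01 on GRCm38 and featureCounts 1.6.12, and the deposited values were raw counts per gene. The member libraries, gene lists and tests were chosen with earlier results of these data known. Counts of the 18 Lgr5 GL libraries were fitted together in R 4.3.3 with edgeR 4.0.16 (TMM scaling, filterByExpr with a minimum of 10 counts, quasi-likelihood test, prior count 0.125), with Benjamini-Hochberg adjustment over 18025 genes. The 18 Lrig1 GL libraries formed a separate table and were joined to it for the test between populations. Alternatives used limma 3.58.1, DESeq2 1.42.0 and sva 3.50.0, and the fits were tested on simulated data. Leading genes were the 12 higher and 12 lower with the smallest unadjusted p among those with a mean of at least 10 counts and no overlap between time points. Up to 3 members of each list, fixed genes of the tissue, genes over 5% of a library and genes called in a test of a difference were also named, and further list members were named after their values were seen. Depth was 2250348 to 6960537 counts without molecular identifiers, so floors of 3 counts cover counting error only. The p-values of the Lgr5 GL tests rest on the spread within groups, estimated over the 18 libraries fitted together. Each mini-bulk library came from a small number of sorted cells. That spread therefore holds which cells were drawn as well as differences between mice.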

Additional observations from a re-analysis of the deposited data

Results flagged for a closer look

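In 4 genes the change at the second wound differed from the change at the first by a test of the difference itself, an interaction term in edgeR's quasi-likelihood test with adjustment over all genes. The difference in log2 change was 5.599 for Col14a1 (adjusted p = 0.0354), 4.29 for Fras1 (adjusted p = 0.0408), 8.79 for Fam69b (adjusted p = 0.0448) and -11.59 for Slit1 (adjusted p = 0.0354). Fam69b had 0 counts in all 3 libraries at 1w pw1, so its fitted size is no bound. All 4 calls were lost under limma-voom, surrogate variables and the replicate block, and without 0w a, 0w b, 1w pw1 replicate 1, any 1 library at 8w pw1, or 1w pw2 replicate 2 or 3, while the signs of the differences were kept.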

How the results depend on the processing

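For re-wounding, the likelihood ratio test called 5 genes and DESeq2 16, and 1 gene, Golga7b, was called with surrogate variables (estimated number or 2) and with only the 6 libraries compared. Leaving out 1 of the 6 libraries gave 0 to 0 genes, and the other alternatives 0. In alternatives chosen after seeing the data, Golga7b alone was called without 1w pw1 replicate 1 (adjusted p = 0.00497) or replicate 3 (adjusted p = 0.0338). Against the first wounding, where 4 genes were called, the likelihood ratio test called 321, DESeq2 346, limma-voom 0, no filter on low counts 2, surrogate variables 0 (estimated number) or 1 (2 variables), and leaving out 1 library 0 to 19. It was 0 without 0w b, 1w pw1 replicate 1, any library at 8w pw1, or 1w pw2 replicate 2 or 3, it was 1 without 1w pw2 replicate 1, 9 without 0w c and 19 without 1w pw1 replicate 2 or 3. Between populations, where 0 were called, the likelihood ratio test called 3 and leaving out 1 library gave 0 to 1. The replicate block called 0 genes for re-wounding, 1 against the first wounding, which is none of the 4, and 2 between populations. Libraries of the same number correlated in their deviations at 0.0742 to 0.0824 over 2 pairs and the others at -0.124 to 0.0740 over 7. With only 2 pairs, these values cannot tell whether libraries of the same number shared more than that number. Of 2481 values of named genes under these alternatives 21 became called. The main re-wounding test called 0 genes, so no call could be reversed. In named genes without overlap between the time points 0 values changed sign, an outcome that the lack of overlap largely fixes. Signs did turn in some named genes with overlapping libraries. S100a9 was at -4.44, but at 1.33 without 8w pw1 library c, and Krt73 at 2.42, but at -0.51 without 1w pw2 library 3. The causes were not tested. With 3 libraries at each time point and a common biological coefficient of variation of 0.6625, small changes could not be detected.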
